A study of Mus musculus with 6 samples.

Results

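GABA-A receptors are the chloride channels through which the transmitter GABA inhibits neurons, and each receptor is assembled from several subunits encoded by a large gene family. The 7 subunit genes described here were chosen by name and are the alpha subunit genes Gabra2, Gabra3, Gabra4 and Gabra5, the beta subunit genes Gabrb1 and Gabrb2 and the gamma subunit gene Gabrg1. They are 7 of the 16 GABA-A receptor subunit genes analysed here, and of the 47086 loci in the deposited table. All 7 had 1 locus each under their symbol, and all 7 were among the 13195 loci tested. Total RNA was sequenced from hippocampal neurons in primary culture, in 3 libraries from wild type (WT) mice and 3 from mice lacking *Fmr1* (*Fmr1* KO). Its product FMRP binds RNA, and people with fragile X syndrome lack it. Both genotypes are labelled C57BL/6 with no substrain, both were cultured from newborn mice to 14 days in vitro, and neither was treated. The study describes its mice in general as male *Fmr1* KO animals and WT littermates, bred from heterozygous females and WT males. For the newborn mice behind these 6 libraries, the sources used here give neither the sex nor the litter, nor do they name the *Fmr1* allele. The p-values therefore measure the spread between these libraries, which may be technical. All directions rest on the labels, because the *Fmr1* transcript itself was not lower in *Fmr1* KO. Its FPKM was 19.0, 19.5 and 19.7 in WT against 23.1, 21.8 and 18.5 in *Fmr1* KO, a value over the whole gene that does not check for a deleted part. Pearson's r of the log2 values was 0.970 to 0.978 between libraries of a genotype and 0.962 to 0.977 between genotypes.

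The alpha and beta subunits together form the sites where GABA binds, and the alpha and gamma subunits form the site where benzodiazepines bind. Receptors with alpha 2 are known to be placed at synapses, including those on the axon initial segment, whereas receptors with alpha 4 or alpha 5 are largely found outside synapses. The beta subunits are needed for transport of the receptor to the cell surface. The gamma 1 subunit is a rarer gamma subunit of the brain.

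The genes lie in clusters that arose by duplication. Gabrg1, Gabra2, Gabra4 and Gabrb1 lie in this order within 1.40 Mb of chromosome 5 (GENCODE M21, build GRCm38), whereas Gabra5 lies on chromosome 7, Gabrb2 on chromosome 11 and Gabra3 on chromosome X. Gabra2 (chromosome 5, 70957597 to 71095849, minus strand) spans 138.3 kb, and its coding transcript has 10 exons and 5852 bases. It is separated by 115.0 kb from Gabrg1 (70751047 to 70842617, minus strand) and by 473.9 kb from Gabra4 (71569749 to 71658308, minus strand). Gabra4 and Gabrb1 (71658113 to 72149037, plus strand) run head to head and overlap at their starts, with 46 exonic bases in common. The deposited table gives both of them the same interval, and the strand setting of the counting is not given in the sources used here, so reads from those 46 bases may have gone to either gene. Exact runs of 50 bases were also looked for between the members, which does not measure similarity broken by mismatches. No run of 50 bases was common to the transcripts of any of the 21 pairs on the same strand, and in 1 pair, Gabra2 and Gabra3, 2 runs matched on opposite strands.

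The start of Gabra2 differs in base composition from that of its neighbour Gabrg1. Shown here are the 250 bases before the RefSeq start of Gabra2, of Gabrg1 as the nearest gene of the same cluster, and of Gabra5 as the most abundant alpha subunit gene of another cluster. The windows are chr5:71095850-71096099, chr5:70842618-70842867 and chr7:57510060-57510309 of GRCm38.p6, all read from the minus strand, and none of them holds an annotated exon. Capitals mark GGGCGG, the letters of a GC box, searched on both strands.
Gabra2: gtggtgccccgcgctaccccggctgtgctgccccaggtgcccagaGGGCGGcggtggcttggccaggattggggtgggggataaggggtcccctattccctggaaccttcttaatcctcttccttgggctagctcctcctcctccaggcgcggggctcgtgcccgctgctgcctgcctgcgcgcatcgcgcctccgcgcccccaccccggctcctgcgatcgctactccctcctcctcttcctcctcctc
Gabrg1: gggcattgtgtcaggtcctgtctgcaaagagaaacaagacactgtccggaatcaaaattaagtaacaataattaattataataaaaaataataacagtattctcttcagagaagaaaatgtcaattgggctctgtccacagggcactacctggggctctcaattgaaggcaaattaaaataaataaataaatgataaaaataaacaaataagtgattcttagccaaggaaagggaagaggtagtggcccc
Gabra5: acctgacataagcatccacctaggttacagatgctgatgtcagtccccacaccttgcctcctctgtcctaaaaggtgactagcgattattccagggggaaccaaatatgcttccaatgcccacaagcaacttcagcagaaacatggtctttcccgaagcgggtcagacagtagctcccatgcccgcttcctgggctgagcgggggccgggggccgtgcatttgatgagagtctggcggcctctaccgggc
The Gabra2 window had a GC content of 70.0%, above that of 90.8% of the 32851 promoter windows in the RefSeq table, and held 18 CpG. The Gabrg1 window had a GC content of 35.6%, above that of 5.4% of windows, and held 1 CpG. The Gabra5 window had 56.4% GC and 9 CpG. GGGCGG occurred 1 time in the Gabra2 window and in 32.7% of all windows, and it was not among the letters of the Gabrg1 and Gabra5 windows. A GC-rich start was not particular to Gabra2 in its cluster. The Gabra4 window had 61.2% GC, 12 CpG and GGGCGG 2 times. The Gabrb1 windows had 64.4% GC with 18 CpG and 50.8% GC with 6 CpG, both without GGGCGG. These Gabra4 and Gabrb1 windows overlap annotated exons of other genes and are not shown. A match of letters is a description and not a binding site.

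Gabra2 was the member that differed between the genotypes. In the WT libraries it had an FPKM of 122, 125 and 119. In the *Fmr1* KO libraries it had an FPKM of 32.1, 30.3 and 30.7. The genotypes were far apart, with little spread inside either. FPKM is a level per length of transcript, scaled to the size of a library. How these libraries were scaled is not given in the sources used here, and the number of reads behind a value is unknown. The means were 122 ± 2.90 in WT against 31.0 ± 0.958 in *Fmr1* KO (n = 3, SD), so that the mean was 74.6% lower in *Fmr1* KO. On the scale of log2(FPKM + 0.1), on which all loci were compared with limma, Gabra2 fell by 1.97 (standard error 0.05, 95% interval -2.08 to -1.87, adjusted p = 2.74e-07). It ranked first of the 13195 tested loci by p, and 16th by the size of the fall. In bulk RNA, fewer cells that express a gene and less of its RNA per cell cannot be told apart.

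Y-linked genes also moved with genotype, and the sex-linked genes given here were chosen after their values were seen. The Y-linked genes Eif2s3y, Ddx3y and Kdm5d were higher in *Fmr1* KO, with log2 changes of 1.13, 0.66 and 0.76, and all 3 passed the adjusted p of 0.05 in limma. Uty, also Y-linked, had a log2 change of 0.71 and did not pass (limma adjusted p = 0.063), though every *Fmr1* KO library was above every WT library. Eif2s3y had an FPKM of 9.26, 9.68 and 9.65 in WT against 22.4, 21.0 and 19.6 in *Fmr1* KO. Xist, which is expressed from the inactive X chromosome of female cells, had 59.9, 77.9 and 74.6 in WT against 53.0, 61.3 and 60.8 in *Fmr1* KO, with overlapping libraries. Both kinds of transcript were thus present in all 6 libraries. The part of these differences in the Gabra2 result, and in that of the X-linked member Gabra3, was not tested.

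**Figure D1:**
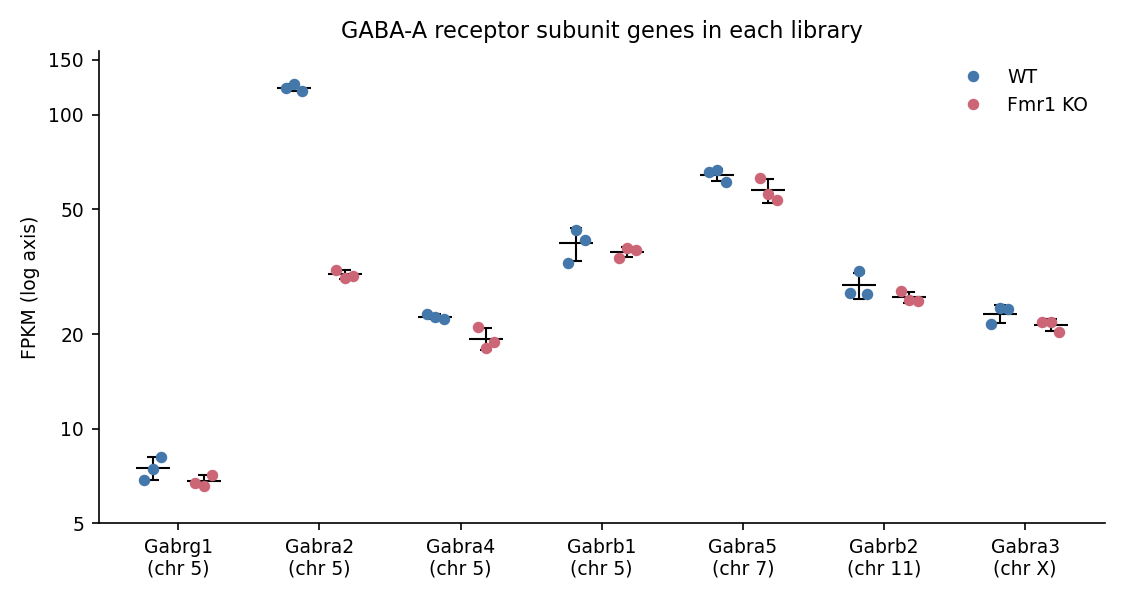
FPKM of the 7 GABA-A receptor subunit genes (log axis) in the 3 WT and 3 *Fmr1* KO libraries, grouped by chromosome; points are libraries and black marks are the mean ± SD. Gabra2 lies between 119 and 125 in WT and between 30.3 and 32.1 in *Fmr1* KO, while the libraries of the other genes lie close together.

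The 3 other genes of the chromosome 5 cluster did not share this difference. Gabrg1, on one side of Gabra2, had an FPKM of 6.87, 7.44 and 8.11 in WT against 6.72, 6.57 and 7.14 in *Fmr1* KO. Its log2 change was -0.13 (standard error 0.08, 95% interval -0.31 to 0.05), and the libraries of the genotypes overlapped. Without WT replicate 3 it was -0.07. Gabra4, on the other side, had 23.3, 22.6 and 22.4 in WT against 21.1, 18.1 and 18.8 in *Fmr1* KO. The Gabra4 libraries did not overlap, and the mean was 15.1% lower in *Fmr1* KO. With a log2 change of -0.24 (standard error 0.07, 95% interval -0.39 to -0.09, limma adjusted p = 0.169), Gabra4 did not pass the test over all loci. Gabrb1 had 33.8, 43.1 and 40.0 in WT against 34.9, 37.7 and 37.1 in *Fmr1* KO, with the *Fmr1* KO libraries inside the WT range. The log2 change of Gabrb1 was -0.09 (standard error 0.09, 95% interval -0.28 to 0.11), and it was -0.18 without WT replicate 1 and -0.0098 without WT replicate 2.

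The separation of Gabra2 from its neighbours was also compared within each library, as the ratio of the Gabra2 level to that of each of the 6 other members. In WT the Gabra2 level was 5.23 to 5.51 times that of Gabra4, and in *Fmr1* KO it was 1.52 to 1.67 times. Relative to Gabrg1 it was 14.5 to 17.5 times in WT and 4.25 to 4.72 times in *Fmr1* KO. Relative to Gabrb1 it was 2.90 to 3.60 times in WT, and in *Fmr1* KO it was below Gabrb1, at 0.804 to 0.919 times. In none of the 6 pairs did the libraries of the genotypes overlap. All 6 ratios hold the same Gabra2 values, so the pairs are not independent, and their separation followed from the fall of Gabra2. The difference in log2 ratio, *Fmr1* KO minus WT, was -1.74 for Gabra4, -1.84 for Gabrg1 and -1.89 for Gabrb1 as the cluster neighbours. For the genes of the other clusters it was -1.81 for Gabra5, -1.85 for Gabrb2 and -1.86 for Gabra3. Each of the 6 differences had p = 0.1 in a two-sided exact permutation test, the smallest p that 3 libraries against 3 allow, and 0.1 after Benjamini-Hochberg adjustment over the 6 pairs.

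Gabra5, on chromosome 7, was the second most abundant member in WT. It had an FPKM of 65.6, 66.7 and 61.1 in WT against 63.0, 55.9 and 53.4 in *Fmr1* KO. Of the *Fmr1* KO libraries, 2 were below the WT libraries and replicate 1 was within their range. The log2 change of Gabra5 was -0.17 (standard error 0.07, 95% interval -0.32 to -0.01, limma adjusted p = 0.301). Gabrb2, on chromosome 11, had 27.1, 31.7 and 27.0 in WT against 27.5, 25.6 and 25.5 in *Fmr1* KO, and the genotypes overlapped through *Fmr1* KO replicate 1. Its log2 change was -0.12 (standard error 0.07, 95% interval -0.29 to 0.04), and without WT replicate 2 it was -0.05. Gabra3, on chromosome X, starts 3.75 Mb from *Fmr1* and encodes an alpha subunit that is prominent early in development. Its FPKM was 21.5, 24.2 and 24.0 in WT against 21.9, 21.9 and 20.3 in *Fmr1* KO, with overlapping libraries. The log2 change of Gabra3 was -0.12 (standard error 0.06, 95% interval -0.26 to 0.03).

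Of the 7 members, 1 was lower and 0 were higher at a limma adjusted p below 0.05, against 0.174% of the tested loci that were lower and 0.0909% that were higher. At an unadjusted limma p below 0.05, 3 members were lower (Gabra2, Gabra4 and Gabra5) and 0 were higher, against 7.77% of all tested loci lower and 6.99% higher. In 2 members, Gabra2 and Gabra4, every *Fmr1* KO library was below every WT library, against 10.3% of all tested loci. The sign was the same in the whole set, with 7 of 7 log2 changes below 0 against 48.3% of all tested loci. The median log2 change was -0.13 for the members and 0.005 for all tested loci, of which the middle 90% lay between -0.28 and 0.24. Apart from Gabra2, every member was inside that range. The members are genes of one receptor family in the same 6 libraries and are not replicates of each other.

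**Figure D2:**
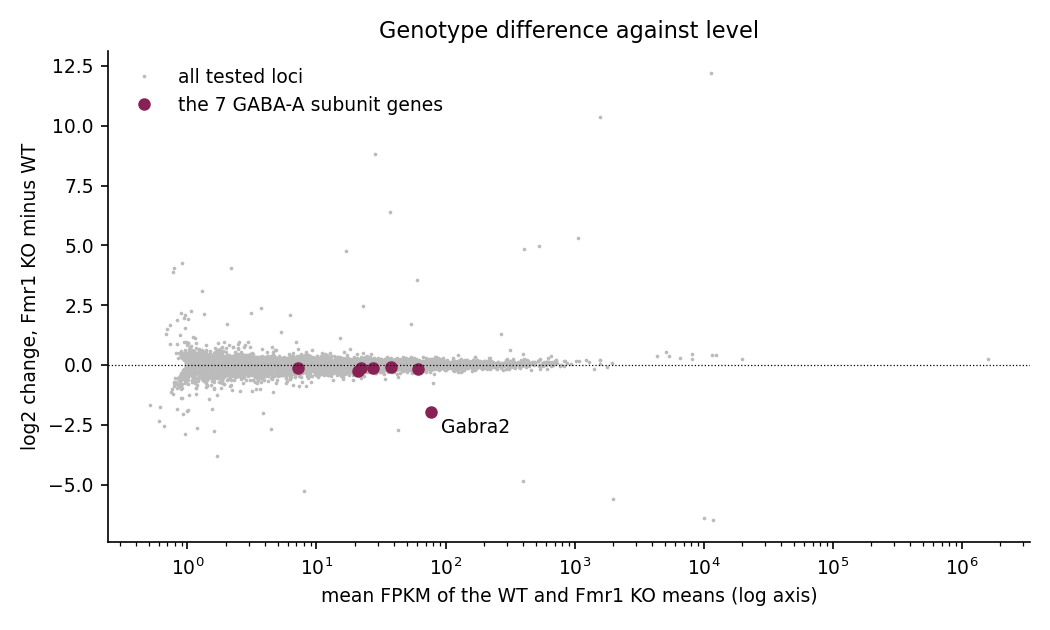
Log2 change, *Fmr1* KO minus WT, against the mean FPKM (log axis) of each of the 13195 tested loci (grey), with the 7 GABA-A subunit genes in purple. Gabra2 at -1.97 lies below the band of loci of its level, and the other 6 members lie within the band.

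The order of the members by level per length changed at Gabra2. In WT the order of the mean FPKM was Gabra2 at 122, Gabra5 at 64.4, Gabrb1 at 39.0, Gabrb2 at 28.6, Gabra3 at 23.2, Gabra4 at 22.8 and Gabrg1 at 7.47. In *Fmr1* KO it was Gabra5 at 57.4, Gabrb1 at 36.6, Gabra2 at 31.0, Gabrb2 at 26.2, Gabra3 at 21.4, Gabra4 at 19.3 and Gabrg1 at 6.81. Gabra2 thus stood first in WT and behind Gabra5 and Gabrb1 in *Fmr1* KO, and the other 6 members kept their order. Gabra3 and Gabra4 overlapped in both genotypes, and all other neighbours in these orders had separate libraries.

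The make-up of the RNA of the 4 alpha subunit members differed accordingly. Gabra2 made up 52.5, 52.5 and 52.6% of their summed FPKM in WT and 23.3, 24.0 and 24.9% in *Fmr1* KO (exact permutation p = 0.1, the smallest possible with 3 against 3). Gabra5 had the largest share in *Fmr1* KO, at 44.4 ± 1.13% against 27.7 ± 0.676% in WT (n = 3, SD). The share of Gabra3 was 9.98 ± 0.683% in WT against 16.6 ± 0.733% in *Fmr1* KO, and that of Gabra4 was 9.79 ± 0.276% against 15.0 ± 0.552% (n = 3, SD). These larger shares did not come with higher levels, since the mean FPKM of each of these 3 genes was lower in *Fmr1* KO. The mean sum of the 4 genes changed by -103.5 FPKM, and by -12.29 FPKM without Gabra2. The 4 genes summed to 233 ± 5.87 FPKM in WT against 129 ± 7.88 in *Fmr1* KO (n = 3, SD). Without Gabra2 the sum ranged from 107.5 to 113 FPKM in WT, just above the range of 92.6 to 106 FPKM in *Fmr1* KO. The beta subunit members Gabrb1 and Gabrb2 together summed to 67.6 ± 6.98 FPKM in WT against 62.8 ± 0.475 in *Fmr1* KO (n = 3, SD), with overlapping libraries.

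**Figure D3:**
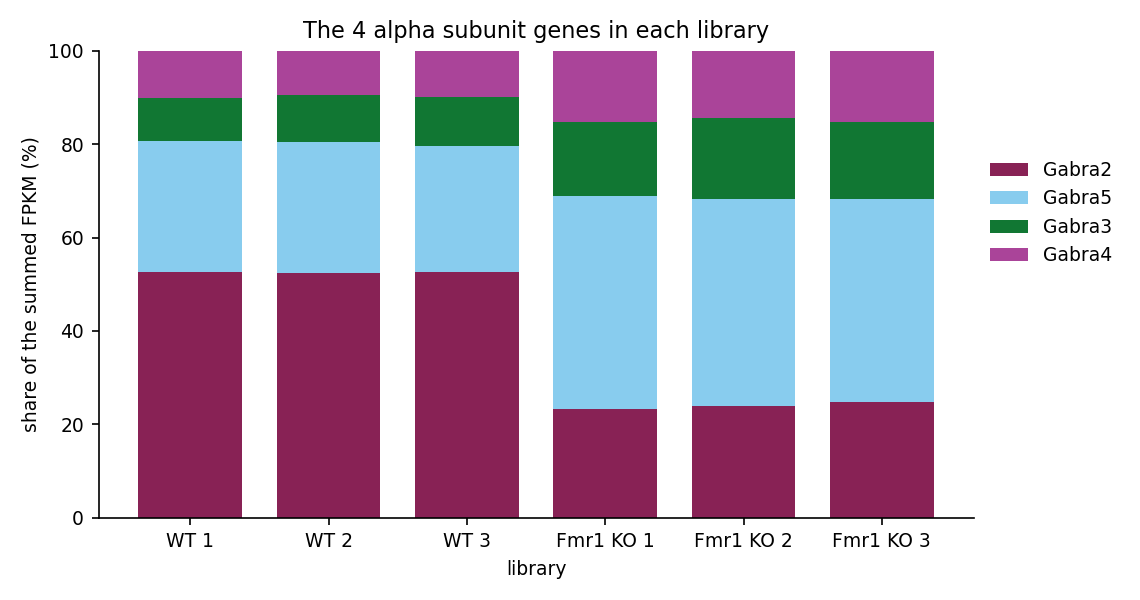
Share (%) of Gabra2, Gabra5, Gabra3 and Gabra4 in their summed FPKM, by library, with the 3 WT libraries on the left and the 3 *Fmr1* KO libraries on the right. The Gabra2 share is 52.5 to 52.6% in WT and 23.3 to 24.9% in *Fmr1* KO.

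Of the 9 other GABA-A subunit genes analysed here, 2 passed the minimum of 1 FPKM. Of these 2, 0 were below a limma adjusted p of 0.05, while 1 (Gabrd) was lower at an unadjusted p below 0.05, against 7.77% of all tested loci. Gabrg3, a gamma subunit gene in the chromosome 7 cluster with Gabra5, had an FPKM of 3.01 ± 0.611 in WT against 2.71 ± 0.194 in *Fmr1* KO (n = 3, SD). Its log2 change was -0.13, and it was 0.0034 without WT replicate 2. Gabrd, whose delta subunit takes the place of gamma in receptors outside synapses, had 3.20 ± 0.231 in WT against 2.26 ± 0.210 in *Fmr1* KO (n = 3, SD), a log2 change of -0.48 (standard error 0.11, limma adjusted p = 0.117). The Gabrd libraries did not overlap. Of the remaining subunit genes analysed, Gabrp was listed at 0 in every library and 6 were below 1 FPKM in both genotypes.

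Around Gabra2 no other tested locus passed the test. Within 2 Mb of its start, 8 loci other than the 4 receptor genes were tested, and 0 of them were below a limma adjusted p of 0.05, or below an unadjusted p of 0.05. Their log2 changes were above 0 in 4 and below 0 in 4, with a median of -0.0032. On the side of Gabrg1 the nearest were Gnpda2, a glucosamine-6-phosphate deaminase gene, with 11.6 FPKM in WT and 11.2 in *Fmr1* KO, and Guf1, with 12.3 and 13.3. Kctd8, an auxiliary subunit gene of the GABA-B receptor, starts 1.85 Mb away on that side and had 1.87 FPKM in WT and 1.93 in *Fmr1* KO. On the other side the predicted genes Gm15616 and Gm38562 share the interval of Gabra4 and Gabrb1 and had log2 changes of -0.20 (standard error 0.22) and -0.67 (standard error 0.49). Beyond them came Commd8 at -0.03, Nfxl1 at 0.02 and Slain2 at 0.08. Around Gabra5 and Gabrb2, 12 and 13 other loci were tested within 2 Mb and 0 passed, with 2 and 3 below an unadjusted p of 0.05. Around Gabra3, 1 higher and 7 lower of 40 other loci were below an unadjusted p of 0.05. The 1 that passed the adjusted p was Bgn, at 6.36 ± 0.593 FPKM in WT and 2.82 ± 0.261 in *Fmr1* KO (n = 3, SD). Over all tested loci, 7.77% were lower and 6.99% higher at an unadjusted limma p below 0.05, and 0.174% were lower at the adjusted p.

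**Figure D4:**
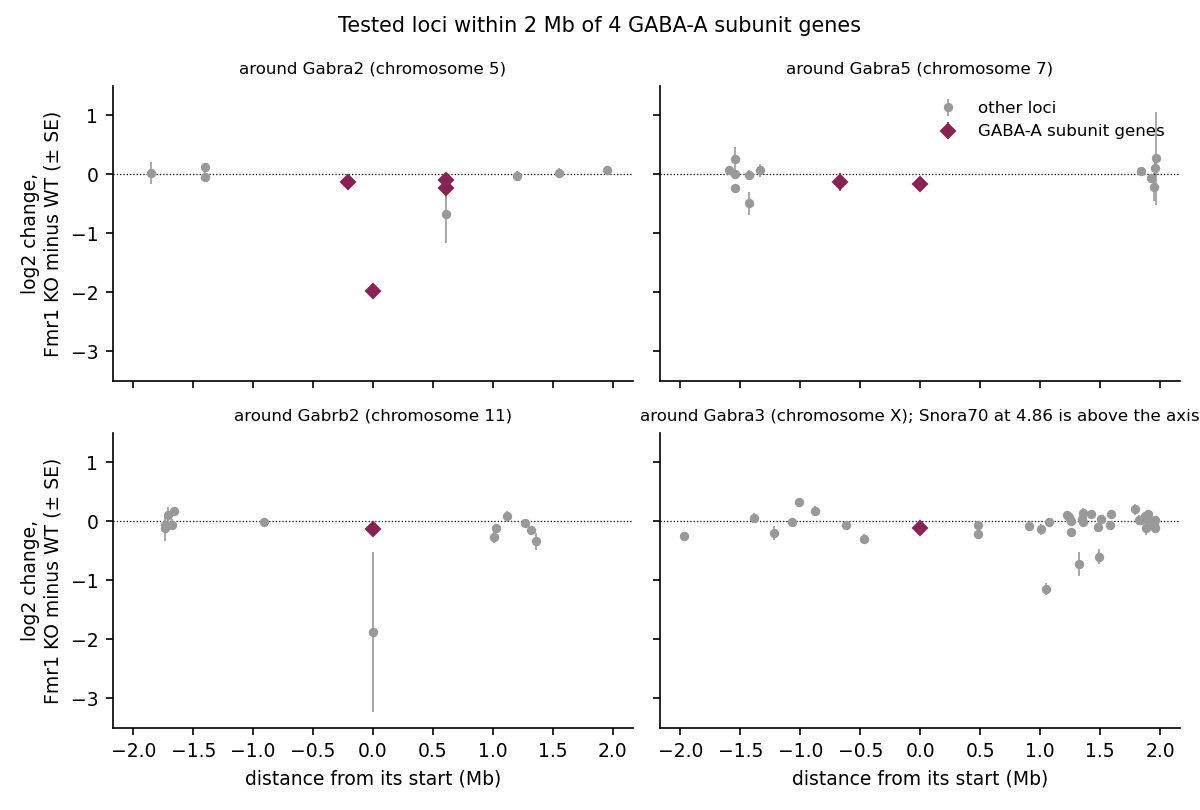
Log2 change ± standard error, *Fmr1* KO minus WT, of the tested loci within 2 Mb of the starts of Gabra2, Gabra5, Gabrb2 and Gabra3, against the distance in Mb; purple diamonds are GABA-A subunit genes and grey points other loci. Gabra2 at -1.97 stands alone in its region, where the other loci lie between -0.67 and 0.12, and 1 locus near Gabra3 (Snora70, listed above 0 in 1 library) lies above the axis. The low grey point at Gabrb2 is Gm34591 at -1.87, whose FPKM was 5.51 in WT replicate 1 and at most 0.322 elsewhere.

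The genes that make, package and clear GABA did not pass the test. Of 12 genes on this list, 10 were tested, with 7 log2 changes above 0, 3 below and a median of 0.05. None passed an adjusted p of 0.05 in limma, and 2 were higher at an unadjusted p below 0.05, against 6.99% of all tested loci. The GABA-synthesising enzyme genes Gad1 and Gad2 had 90.6 ± 2.32 and 27.2 ± 1.40 FPKM in WT and 86.2 ± 3.57 and 29.4 ± 1.46 in *Fmr1* KO (n = 3, SD). Slc32a1, the vesicular GABA transporter gene and the lowest of the list by log2 change, had 32.4 ± 1.87 and 30.7 ± 0.742 (n = 3, SD). Slc6a11, a GABA uptake transporter gene used by astrocytes, was the highest, at 53.7 ± 5.53 in WT against 64.0 ± 2.70 in *Fmr1* KO (n = 3, SD), a log2 change of 0.26 (limma adjusted p = 0.185).

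The genes that anchor, assemble and transport GABA-A receptors also did not pass the test in limma. Of 25, 24 were tested, with 9 log2 changes above 0, 15 below and a median of -0.0092. At an unadjusted p below 0.05, 3 had a lower level, against 7.77% of all tested loci. Gphn, which encodes the scaffold gephyrin, had an FPKM of 34.0 ± 3.04 in WT against 33.0 ± 1.56 in *Fmr1* KO (n = 3, SD). Nlgn2, the neuroligin of inhibitory synapses, had 74.9 ± 1.08 and 74.4 ± 2.52 (n = 3, SD). The list ranged from Plcl1, whose protein binds GABA-A receptors, at -0.27 (limma adjusted p = 0.222) to Trak2, a mitochondrial transport adaptor, at 0.15 (limma adjusted p = 0.384). Gabarap, named for its binding of GABA-A receptors, was listed at 0 in all libraries. Its symbol had 2 loci, and whether the listed 0 is a true absence was not tested.

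GABA-B receptors act through G proteins instead of a channel. Of their 6 listed genes, 5 were tested, and no locus was found under the symbol Kctd12. The 5 had a median log2 change of 0.03 and 0 below a limma adjusted or unadjusted p of 0.05, from Gabbr1 at -0.09 to Kctd12b at 0.11. Glycine receptors are chloride channels of the same superfamily. Of their 5 genes, 2 were tested and 0 passed in limma, with Glra2 at -0.05 and Glrb at -0.17, the latter lower at an unadjusted p below 0.05 (limma adjusted p = 0.185). Of all tested loci, 7.77% were lower at that unadjusted p. The sign of Glra2 was not stable to leaving out single libraries.

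The pattern of Gabra2 was compared with that of every other tested locus. The 5 tested loci whose pattern over the 6 libraries was most like it, by the root mean square difference of centred log2 values, were Ccl28 (0.14), 1700013F07Rik (0.40), Bgn (0.43), Gm18874 (0.46) and Serpinf1 (0.47). They were picked from these same values, and their log2 changes ran from -1.82 (Ccl28) to -1.09 (Serpinf1), against -1.97 for Gabra2. Of them, 1700013F07Rik and Gm18874 did not pass in limma (adjusted p = 0.0855 and 0.0821). None of the 5 lies on chromosome 5. Ccl28, a chemokine gene on chromosome 13, had 2.47 ± 0.204 FPKM in WT and 0.629 ± 0.0907 in *Fmr1* KO (n = 3, SD). Nnt, a mitochondrial transhydrogenase gene also on chromosome 13, had 10.7, 11.5 and 11.7 FPKM in WT and 6.80, 7.01 and 6.48 in *Fmr1* KO, with a log2 change of -0.73 (limma adjusted p = 0.00374). Nnt (119335527 to 119409257) and Ccl28 (119610520 to 119654359) lie close together on that chromosome. Whether their changes are linked was not tested. Gabra2 and Nnt are both known to differ in level between C57BL/6 substrains. The labels give no substrain. The study describes its WT and *Fmr1* KO mice in general as littermates, but the sources used here do not say so of the mice behind these libraries. The part of substrain in the Gabra2 difference was not tested.

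The cultures held neurons and glia. Genes of the pan-neuronal list summed to 1255 to 1322 FPKM in WT and 1309 to 1413 in *Fmr1* KO, with all 7 tested and a median log2 change of 0.03, and astrocyte genes to 1397 to 1661 and 1468 to 1625, with all 8 tested and a median of -0.02. The medians were 0.10 for 7 excitatory neuron genes, 0.02 for 10 of 11 inhibitory neuron genes, 0.06 for 7 of 8 oligodendrocyte lineage genes and 0.23 for 6 proliferation genes. None of the genes of these 6 lists passed an adjusted p of 0.05 in limma. At an unadjusted p below 0.05, 1 pan-neuronal, 1 excitatory neuron, 4 inhibitory neuron, 2 oligodendrocyte lineage and 3 proliferation genes were higher, and 2 inhibitory neuron and 2 astrocyte genes were lower. Over all tested loci, 6.99% were higher and 7.77% were lower at that p. All 6 proliferation genes had log2 changes above 0, and the inhibitory neuron genes had 5 above and 5 below, against 48.3% of all tested loci below 0. Inhibitory neuron genes summed to 353 to 372 FPKM in WT and 331 to 379 in *Fmr1* KO. Microglia genes summed to 5.45 to 7.95 FPKM in WT and 1.37 to 2.47 in *Fmr1* KO, where 4 of 9 were tested, all 4 had a lower level at an unadjusted p below 0.05, 1 passed the adjusted p, and Tmem119 and Aif1 were listed at 0. Choroid plexus genes summed to 0.876 to 1.62 FPKM in WT and 53.6 to 63.5 in *Fmr1* KO, where 2 of 6 were tested, 1 was called higher (Ttr) and Kl was listed at 0. Ttr carried most of this difference. The other 5 genes summed to 0.785 to 1.62 FPKM in WT and 1.58 to 2.77 in *Fmr1* KO, with overlapping libraries. Among them, Aqp1 (means 0.228 and 0.446) and Clic6 (0.0757 and 0.568) were higher in every *Fmr1* KO library but below 1 FPKM. Folr1 and Slc4a5 overlapped between the genotypes. Endothelial genes summed to 2.50 to 2.64 and 1.56 to 2.25 FPKM, with 1 of 6 tested and Cldn5 listed at 0. The part of these cell types in the Gabra2 difference was not tested.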

How the data were processed

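RNA-seq libraries of 3 WT and 3 *Fmr1* KO hippocampal cultures were compared. Per the study's methods, the authors clipped and trimmed the reads, aligned them to GRCm38 with TopHat2, and estimated the deposited FPKM per locus with Cufflinks and Cuffdiff. For tool versions, annotation, strand setting and scaling between libraries, the sources used here give nothing. The table also holds the authors' group FPKM, fold changes, p-values and q-values, which were not used. FPKM are not counts and the depth is unknown, so no count model was fitted and no counting interval is given.

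Loci with a mean of at least 1 FPKM in either genotype were compared on log2(FPKM + 0.1) with limma 3.58.1 in R 4.3.3 (mean-variance trend, no covariate), with Benjamini-Hochberg adjustment over all 13195 tested loci and a threshold of 0.05. This scale understates changes of low loci. Ratios and shares were compared with two-sided exact permutation tests. The limma step was tested on simulated data with independent, normally spread values. That simulation held no difference in sex, substrain or batch between the genotypes, so it does not bear on these. Where a symbol had several loci, the locus with the highest mean FPKM was used. This held, among others, for Gabarap, Aif1, Cldn5 and Kl, which were listed at 0, and for Gabbr1, so their values are less certain. Starts in the table count from 0, and positions are given from 1. Gene models are from GENCODE M21, promoters from RefSeq (GRCm38.p6).

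The members, the gene lists (other GABA-A subunits, receptor scaffold and trafficking, GABA synthesis and uptake, GABA-B receptor, glycine receptor, and markers of 9 cell types or states) and the tests were chosen with earlier results of these data known. Named were the members, the other subunit genes that were tested and are reported, the genes past the threshold and the extremes of each context list, Gad1, Gad2, Slc32a1, Gphn, Nlgn2, the loci next to Gabra2, the 5 loci most like Gabra2, *Fmr1* and Nnt. The alternatives were other pseudocounts, minimums, centring, a fit without the trend, removal of the trend with locus span, a replicate block, other windows and leaving out each library. Some subunit genes are not reported here, and they were left out of the lists, sums and neighbouring loci, but not of the fit over all loci.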

Additional observations from a re-analysis of the deposited data

How the results depend on the processing

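Gabra2 passed the test in limma under all 14 alternatives to its fit, with log2 changes of -2.00 to -1.94 and adjusted p of 9.28e-08 to 3.37e-05. The other 6 members passed under none of them and kept their sign, with a lowest adjusted p of 0.0921, for Gabra4, although single libraries moved Gabrb1 from -0.1842 to -0.0098, Gabrb2 from -0.163 to -0.0453 and Gabrg1 from -0.188 to -0.0695. The number of loci called over the whole table, 12 higher and 23 lower, moved more. It was 6 and 9 with no minimum, 7 and 14 without the mean-variance trend, and 4 to 8 and 10 to 14 when single libraries were left out. It was 20 and 34 with a minimum of 5 FPKM, and 19 and 29 with the trend with locus span removed. With the replicate number as a block it was 29 and 36. Deviations of same-numbered libraries correlated at 0.243, 0.0577 and 0.0801, and the first of these was the highest of all pairs. WT replicate 2 correlated best with *Fmr1* KO replicate 3, at 0.0658. The sources used here do not say whether same-numbered libraries were prepared together, and this was not tested. The block called 1 locus higher near Gabra3, where 1 was called lower, and this was 0 within 1 Mb and 2 within 5 Mb. Leaving out single libraries turned the sign of 4 genes that did not pass the test. The log2 changes ranged from -0.285 to 0.0034 for Gabrg3, from -0.1027 to 0.0246 for Gphn, from -0.0299 to 0.0172 for Nlgn2 and from -0.1486 to 0.0368 for Glra2 (0.0225 without *Fmr1* KO replicate 3). The cause was not tested. The Gabra2 share over larger pools of subunit genes was not run. With 3 libraries per genotype the exact tests cannot go below p = 0.1, and 0.2 with a library left out.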
